A study of Homo sapiens with 6 samples.

Results

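The RAS, RAF and MAP kinase cascade carries signals from receptors at the cell surface to the nucleus. Receptor tyrosine kinases recruit adaptors and exchange factors that load RAS with GTP, GTPase-activating proteins switch RAS off again, and active RAS engages the RAF kinases, which sit at the level of the MAP3K tier. Each MAP3K phosphorylates MAP2K kinases and these phosphorylate the MAP kinases of the ERK, JNK and p38 branches, which then act on effector kinases and transcription factors. The 41 genes described here cover these tiers and were taken by gene symbol from the protein-coding rows of the deposited tables, which hold 58735 genes in all. Each of the 41 symbols matched exactly 1 such row.

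RNA from MDA-MB-231 cells, a human triple-negative breast cancer line, was sequenced in 6 libraries, 3 named Vector and 3 named CB. By the labels, the Vector libraries were treated with DMSO and the CB libraries with CB1, whereas the series design names vehicle and CB1 overexpression, CB1 being the cannabinoid receptor encoded by CNR1. In the study's methods, stable lines were made with lentiviral pCDH constructs and puromycin, and resistant clones were pooled. Whether the CB cells also received DMSO is not stated, and each group may be a single line, so an effect of the receptor, of the vehicle and of the line cannot be told apart. No label says that the 3 libraries of a group came from separate cultures, and the p-values therefore measure the spread between these libraries, which may be technical.

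The libraries held 16957881 to 18833661 counts. CNR1 had 4 to 7 counts in the Vector libraries and 6465 to 7703 in the CB libraries, in accord with the labels. The CB 1 library stood apart from CB 2 and CB 3 on the second principal component, which took 13.82% of the variance, and ribosomal protein genes made up 5.81% of its counts against 4.56% to 4.85% in the other CB libraries and 3.92% to 4.17% in the Vector libraries. By the test described below, 24.4% of all tested genes were higher in CB and 25.4% lower. Of the mesenchymal breast cancer markers VIM, CD44, AXL, CAV1, MSN and SPARC, 3 of 6 were higher in CB (VIM, CD44 and AXL). SPARC was lower, and CAV1 and MSN were not called. The summed level of the 6 was 812 to 839 FPKM in Vector and 966 to 1020 FPKM in CB. Of 5 luminal markers, ESR1, PGR and TFF1 were below 0.5 FPKM in every library, GATA3 was higher in CB (1.13 to 1.25 FPKM in Vector, 1.49 to 1.65 FPKM in CB) and FOXA1, at 0.538 to 0.911 FPKM, was not called. A list of genes known from the embryonic kidney line in which lentivirus is commonly made had a summed level of 5.86 to 6.76 FPKM in Vector and 12.8 to 13.6 FPKM in CB. Of its 6 genes 4 were tested and higher (24.4% of all tested genes were higher). GATA2 took most of the sum, at 5.56 to 6.24 FPKM in Vector and 8.25 to 9.13 FPKM in CB. NEFL, NEFM and INA were at 0.0179 to 0.238 FPKM in Vector and 1.06 to 1.66 FPKM in CB and passed the abundance minimum through the CB libraries alone, so that being tested and being higher were tied. LIN28B, below the minimum, was at 0.0666 to 0.106 FPKM in Vector and 0.552 to 0.989 FPKM in CB, and PAX2 was below 0.5 FPKM throughout. The part of the CB 1 library's makeup and of these marker genes in the results below was not tested, and in bulk RNA fewer cells with a transcript and less of it per cell cannot be told apart.

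Expression is given as FPKM, fragments per kilobase of exon scaled to the size of the library, in libraries 1, 2 and 3 of each group in that order, and changes are log2 values of CB against Vector with their standard error from an edgeR fit across the 15289 genes whose mean was 0.5 FPKM or more. A gene was called when its p, adjusted by the Benjamini-Hochberg method over those genes, was under 0.05. Of the 41 members, 39 passed the minimum and 28 were called (71.8%, beside 49.8% of all tested genes), 12 of them higher in CB (24.4% of all tested genes were) and 16 lower (25.4%). The median change was -0.12 over the tested members and -0.002 over all tested genes, and the median absolute change was 0.378 beside 0.354. The values of the 2 groups did not overlap for 31 tested members (79.5%, beside 58.7%). The members were chosen with earlier results of these data known, so these shares are descriptions. Changes were mostly small, and 10 members were called with a change of at least 1.5-fold, which 20.8% of all tested genes were. Without the CB 1 library, 31 members were called, 13 higher and 18 lower, and the calls over all tested genes went up as well, from 7607 to 8647.

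**Figure D1:**
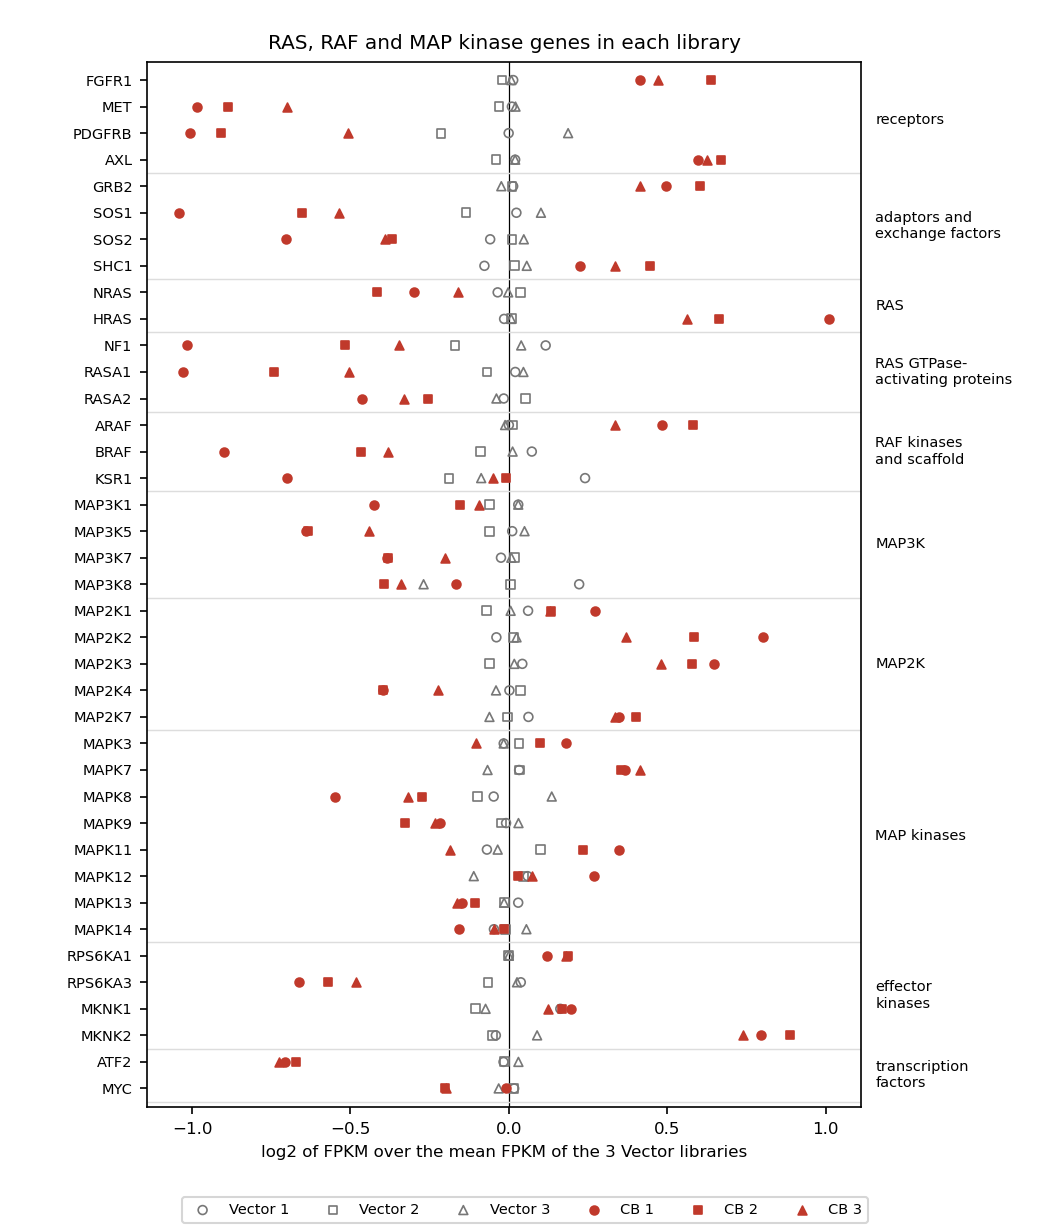
The log2 ratio of FPKM in each library to the mean FPKM of the 3 Vector libraries (x axis) is plotted for the 39 tested members, in rows grouped by tier, with open grey symbols for Vector and filled red symbols for CB. The Vector libraries lie close to 0 and the groups are apart for 31 members, with members on either side of 0 in most tiers.

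The levels spanned several orders of magnitude in the Vector cells. AXL was the most abundant member at 144 ± 3.47 FPKM (SD, n = 3, as for all levels below), followed by MYC at 74.3 ± 1.43 and MET at 50.1 ± 0.981. SHC1, MAP2K2, HRAS and GRB2 came next, at 46.7 ± 2.25, 43.4 ± 1.01, 38.8 ± 0.350 and 38.7 ± 0.553 FPKM, and the last 2 of these did not differ beyond their spread. At the other end, NF1, BRAF, KSR1 and PDGFRB lay between 1.95 and 0.770 FPKM. PDGFRA, a receptor for platelet-derived growth factors, had 8 counts in all Vector libraries and 5 in all CB libraries, a ratio of 0.590 with a 95% exact interval of 0.152 to 2.05, and a difference was not detectable at this depth. MAP2K6, a p38-activating kinase, had 155 counts in Vector and 130 in CB (ratio 0.792, interval 0.622 to 1.01). Both intervals cover counting error only.

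All 4 tested receptors were called (49.8% of all tested genes were), 2 in each direction. AXL, the receptor for GAS6, was at 146, 140 and 146 FPKM in the Vector libraries and at 218, 229 and 222 FPKM in the CB libraries. Every CB library was above every Vector library, and the change was 0.65 ± 0.062 (1.57-fold, edgeR adjusted p = 7.01e-06). FGFR1, a fibroblast growth factor receptor, was also higher, by 0.52 ± 0.075, from 9.39 ± 0.121 to 13.4 ± 1.11 FPKM (edgeR adjusted p = 0.000115). MET, the receptor for hepatocyte growth factor, went the other way. It was at 50.4, 49.0 and 50.8 FPKM in Vector and at 25.3, 27.1 and 30.8 FPKM in CB, with no overlap and with CB 1 lowest. That difference of -0.84 ± 0.082 (1.78-fold lower, edgeR adjusted p = 8.14e-06) was the largest fall among the members in this fit. PDGFRB, the other receptor for platelet-derived growth factors, was scarce, at 0.770, 0.664 and 0.877 FPKM in Vector and 0.383, 0.410 and 0.542 FPKM in CB. Its groups did not overlap and its change was -0.77 ± 0.19 (edgeR adjusted p = 0.00498), but it passed the abundance minimum through the Vector libraries alone. It fell further than MET without Vector 2 (-0.87 beside -0.85), without CB 3 (-0.94 beside -0.92) and with the offsets for GC and length described below (-0.92 beside -0.59). With limma on log2(FPKM + 1) and log2(FPKM + 0.1) the adjusted p was 0.0659 and 0.0756.

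Below the receptors, the 2 adaptors were higher and the 2 exchange factors lower in CB (24.4% and 25.4% of all tested genes were). GRB2, the adaptor that brings SOS to activated receptors, was at 39.1, 39.0 and 38.1 FPKM in Vector and at 54.6, 58.8 and 51.6 FPKM in CB. It was separated without overlap, with a change of 0.52 ± 0.069 (edgeR adjusted p = 6.54e-05). SHC1, an adaptor that links receptors to GRB2, was at 44.3, 47.3 and 48.6 FPKM in Vector and at 54.6, 63.6 and 59.0 FPKM in CB, a change of 0.35 ± 0.076 (edgeR adjusted p = 0.00198), and it shares 7.72% of its exon bases with PYGO2 on the same strand, so that its reads may be split. SOS1, an exchange factor that loads RAS with GTP, was at 6.71, 6.01 and 7.08 FPKM in Vector and at 3.21, 4.20 and 4.55 FPKM in CB. The CB 1 library was again the lowest of the CB libraries, and SOS1 fell by 0.71 ± 0.12 (1.64-fold lower, edgeR adjusted p = 0.000405). Its paralog SOS2 fell by 0.46 ± 0.097, from 8.33 ± 0.311 to 5.97 ± 0.744 FPKM (edgeR adjusted p = 0.00169). With the offsets for GC and length described below, SHC1 (0.16, edgeR adjusted p = 0.0552) and SOS2 (-0.17, 0.0984) were not called.

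The 2 RAS genes among the members moved apart. HRAS was at 38.4, 39.0 and 39.0 FPKM in Vector and at 78.1, 61.5 and 57.3 FPKM in CB, so the CB libraries lay above Vector and were more spread, with CB 1 the farthest. Its change was 0.77 ± 0.10 (1.71-fold, edgeR adjusted p = 5.94e-05). NRAS was at 21.5, 22.6 and 22.0 FPKM in Vector and at 17.9, 16.5 and 19.7 FPKM in CB, again without overlap, a change of -0.27 ± 0.082 (edgeR adjusted p = 0.0149). The NRAS call did not hold without the CB 2 library (adjusted p = 0.0680), the Vector 2 library (0.0675) or the Vector 3 library (0.0548). HRAS made up 64.1%, 63.4% and 63.9% of the summed HRAS and NRAS level in Vector and 81.3%, 78.8% and 74.4% in CB, and the sum itself went from 60.0 to 61.6 FPKM in Vector to 77.1 to 96.0 FPKM in CB.

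All 3 RAS GTPase-activating proteins were lower in CB (25.4% of all tested genes were). RASA1, the most abundant of them, was at 16.7, 15.7 and 17 FPKM in Vector and at 8.07, 9.86 and 11.6 FPKM in CB. The groups were well apart, with CB 1 lowest, and the change was -0.73 ± 0.11 (1.65-fold lower, edgeR adjusted p = 0.000242). A share of 14.7% of its exon bases overlaps CCNH on the opposite strand, and the sources used here do not state if reads were counted by strand. NF1, which encodes neurofibromin, fell by 0.58 ± 0.14, from 1.95 ± 0.200 to 1.29 ± 0.292 FPKM (edgeR adjusted p = 0.00522). RASA2 fell by 0.33 ± 0.087, from 5.10 ± 0.170 to 4.01 ± 0.286 FPKM (edgeR adjusted p = 0.00738).

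The RAF kinases ARAF and BRAF changed in opposite directions. ARAF was at 12.3, 12.4 and 12.2 FPKM in Vector and at 17.2, 18.4 and 15.5 FPKM in CB. Its CB libraries were all above its Vector libraries, and the change was 0.48 ± 0.080 (edgeR adjusted p = 0.000353). BRAF fell from 1.61 ± 0.0901 to 1.09 ± 0.197 FPKM, a change of -0.55 ± 0.12 (edgeR adjusted p = 0.00258), and 5.29% of its exon bases overlap NDUFB2 on the opposite strand. KSR1, a scaffold that holds RAF, MEK and ERK together, was at 1.20, 0.891 and 0.956 FPKM in Vector and 0.625, 1.01 and 0.980 FPKM in CB. These groups overlapped, and the change of -0.20 (95% interval -0.59 to 0.19) was not called.

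Among the other MAP3K genes, 2 of 4 were lower in CB and none was higher (25.4% and 24.4% of all tested genes were). MAP3K5 (ASK1), a stress kinase upstream of JNK and p38, was at 5.49, 5.22 and 5.64 FPKM in Vector and at 3.50, 3.51 and 4.01 FPKM in CB. The separation was complete, with a change of -0.55 ± 0.093 (edgeR adjusted p = 0.000378). MAP3K7 (TAK1), which relays TGF-beta and cytokine signals to JNK, p38 and NF-kB, was at 9.59, 9.87 and 9.81 FPKM in Vector and at 7.48, 7.49 and 8.49 FPKM in CB, a change of -0.30 ± 0.080 (edgeR adjusted p = 0.00747). MAP3K1 (MEKK1) and MAP3K8 (TPL2) had changes of -0.20 (95% interval -0.42 to 0.02) and -0.28 (-0.58 to 0.02) and were not called. MAP3K8 was called without the CB 1 library (adjusted p = 0.0248) or the Vector 3 library (0.0434).

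In the MAP2K tier all 5 tested genes were called (49.8% of all tested genes were), 4 higher and 1 lower. MAP2K2 (MEK2), an activator of ERK, was at 42.2, 43.8 and 44.1 FPKM in Vector and at 75.7, 65.1 and 56.0 FPKM in CB. As for HRAS, CB 1 was farthest from Vector, and the change was 0.61 ± 0.092 (1.53-fold, edgeR adjusted p = 0.000171). MAP2K3 (MKK3), an activator of p38, was at 28.7, 26.7 and 28.2 FPKM in Vector and at 43.7, 41.6 and 38.9 FPKM in CB. Its groups did not overlap and the change was 0.59 ± 0.071 (1.5-fold, edgeR adjusted p = 3.54e-05). MAP2K7 (MKK7) and MAP2K4 (MKK4), which act together on JNK, differed in direction, MAP2K7 with a rise of 0.38 ± 0.071 to 19.6 ± 0.463 FPKM (edgeR adjusted p = 0.000793) and MAP2K4 with a change of -0.32 ± 0.083 to 6.58 ± 0.465 FPKM (edgeR adjusted p = 0.00669). MAP2K1 (MEK1) was higher by 0.19 ± 0.073, just past the threshold (edgeR adjusted p = 0.0429). That call was lost under 10 of 17 alternatives, among them leaving out Vector 1 (adjusted p = 0.0668), Vector 2 (0.190), Vector 3 (0.130) or CB 2 (0.0540).

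Of the 8 MAP kinases 3 were called (37.5%, beside 49.8% of all tested genes), with a median absolute change of 0.152, and none of the 3 calls held with the offsets for GC and length described below. MAPK7 (ERK5) was at 4.49, 4.49 and 4.19 FPKM in Vector and at 5.66, 5.61 and 5.85 FPKM in CB. The groups were apart, and the change was 0.39 ± 0.083 (edgeR adjusted p = 0.00179). The JNK genes MAPK8 and MAPK9 were lower by 0.36 ± 0.095 and 0.24 ± 0.071 on the log2 scale (edgeR adjusted p = 0.00749 and 0.0132). Neither call held without the Vector 3 library (adjusted p = 0.0534 for MAPK8 and 0.0767 for MAPK9), and that of MAPK9 was also lost without Vector 1 (0.0503) or CB 2 (0.0521). MAPK3 (ERK1), at 20.8 ± 0.389 FPKM in Vector and 21.8 ± 2.14 FPKM in CB, was not called, with a 95% interval of -0.09 to 0.25.

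Of the 4 p38 genes none was called. MAPK13 (p38 delta) was the most abundant MAP kinase, at 32.9, 31.9 and 31.9 FPKM in Vector and 29.1, 29.9 and 28.8 FPKM in CB. Its groups did not overlap, yet its change of -0.12 ± 0.064 did not pass the test (edgeR adjusted p = 0.130). MAPK14 (p38 alpha), whose gene lies 16.6 kb from MAPK13 on chromosome 6, had a change of -0.06 (95% interval -0.21 to 0.09). MAPK11 (p38 beta) and MAPK12 (p38 gamma) are 1.9 kb apart on chromosome 22, and their changes were 0.16 (-0.13 to 0.45) and 0.14 (-0.05 to 0.33). MAPK11 was called without the CB 3 library (0.30, adjusted p = 0.0401), and MAPK12 shares 29.3% of its exon bases with HDAC10 on the same strand, so that its reads may be split. For a count by branch, each gene was listed under 1 heading, although some also act in other branches. Of the tested genes listed under p38, 1 of 5 was called, and of those under JNK 4 of 5. All 3 listed under both (MAP3K5, MAP3K7 and ATF2) were called, and 6 of 11 under ERK. Of all tested genes 49.8% were called. With the offsets the counts were 2 for p38, 0 for JNK and 2 for both (46.3% of all tested genes were called). Under ERK 4 were then higher and 2 lower. Whether the branches differ was not tested.

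**Figure D2:**
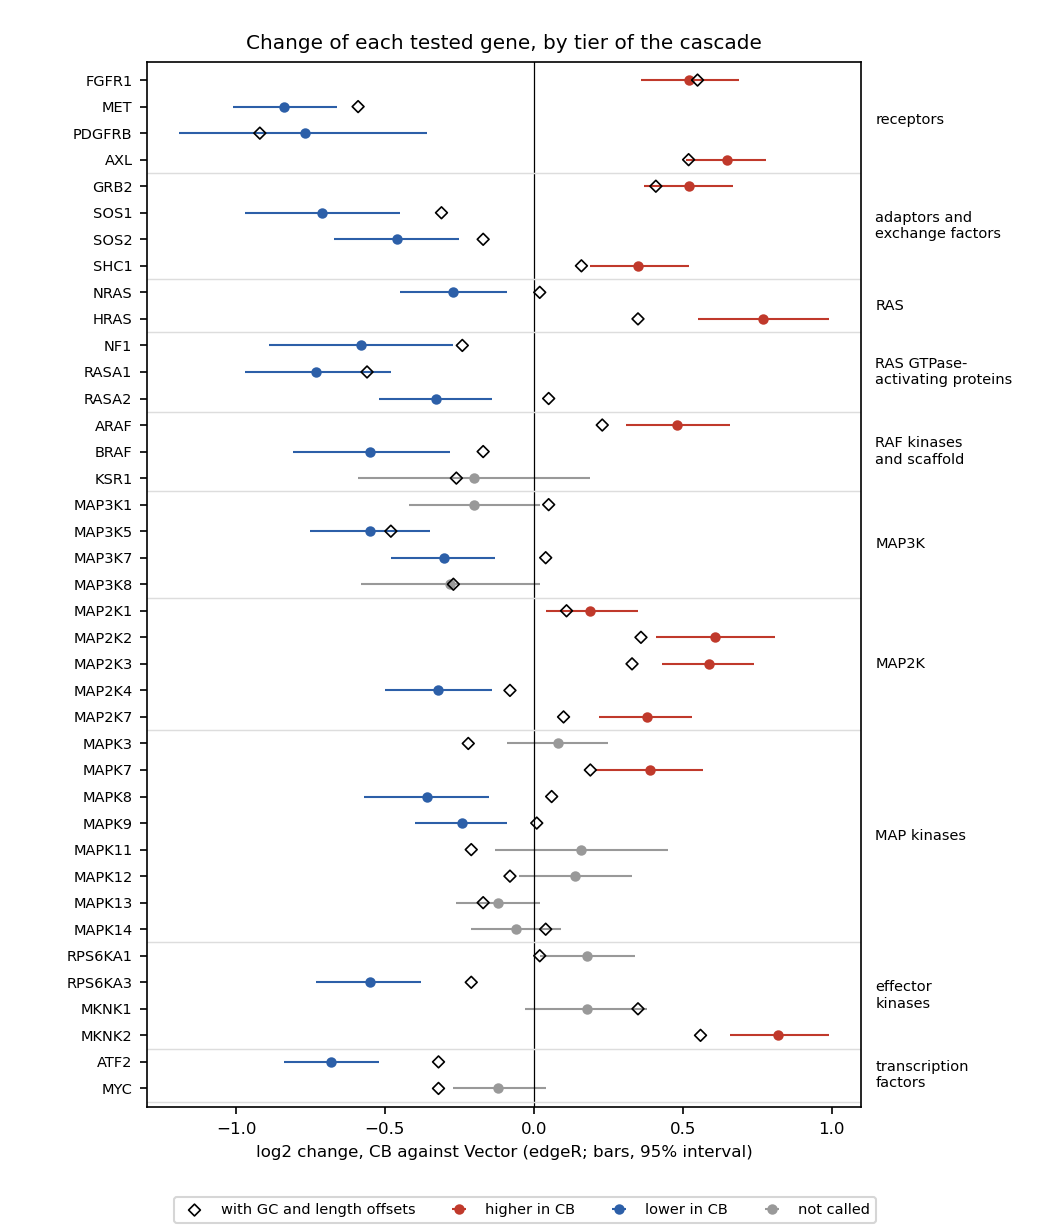
The log2 change of CB against Vector (x axis) is plotted for the 39 tested members in rows grouped by tier, with bars for the 95% interval, red for higher, blue for lower and grey for not called, and open diamonds for the fit with GC and length offsets. The diamonds lie nearer 0 than the points for most called members. Those of AXL (0.52), FGFR1 (0.55), MKNK2 (0.56), MET (-0.59), RASA1 (-0.56) and PDGFRB (-0.92) stay away from it.

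Among the effector kinases, MKNK2, which phosphorylates the translation factor eIF4E downstream of ERK and p38, had the largest rise in this fit, within its error of that of HRAS, which rose more without CB 2 (0.82 beside 0.79). It was at 12.7, 12.6 and 13.9 FPKM in Vector and at 22.7, 24.2 and 21.8 FPKM in CB, with the groups far apart. The change was 0.82 ± 0.075 (1.77-fold, edgeR adjusted p = 4.94e-06). Its paralog MKNK1 had a change of 0.18 (95% interval -0.03 to 0.38) and was not called. RPS6KA3 (RSK2), an ERK-activated kinase, fell by 0.55 ± 0.080, from 8.31 ± 0.323 to 5.60 ± 0.352 FPKM (edgeR adjusted p = 0.000122). RPS6KA1 (RSK1) had a change of 0.18 ± 0.076 that did not pass the test (edgeR adjusted p = 0.0655), although its groups did not overlap, and it was called without the CB 1 library (adjusted p = 0.0170).

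At the end of the cascade, ATF2, a transcription factor activated by JNK and p38, was at 9.67, 9.69 and 9.99 FPKM in Vector and at 6.0, 6.14 and 5.92 FPKM in CB. The libraries of each group lay close together and the groups were separate, with a change of -0.68 ± 0.074 (1.61-fold lower, edgeR adjusted p = 1.55e-05). MYC, whose protein is stabilised by ERK signalling, was at 75.2, 75.1 and 72.7 FPKM in Vector and at 73.9, 64.6 and 64.8 FPKM in CB. Here CB 1 lay within the Vector range and CB 2 and CB 3 below it. The change of -0.12 ± 0.072 was not called (edgeR adjusted p = 0.190), but it was -0.18 without CB 1 (adjusted p = 0.00266).

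Ratios of 2 genes of the same tier within a library do not depend on how libraries are scaled, and 12 such pairs were compared. The log2 ratio of FPKM did not overlap between the groups in 10 pairs. The FPKM of single genes did not overlap for 58.7% of all tested genes, and the share among other pairs of genes was not computed. An exact two-sided permutation test of 3 against 3 libraries cannot go below p = 0.1, which these 10 pairs reached (0.12 adjusted over the 12 pairs), so none could pass 0.05. The log2 ratio of AXL to MET was 1.52 ± 0.0087 (SD, n = 3) in Vector and 3.01 ± 0.14 in CB, the widest shift. Those of HRAS to NRAS and of ARAF to BRAF each shifted by 1.04. ARAF made up 87.9%, 89.1% and 88.2% of the summed ARAF and BRAF level in Vector and 95.2%, 94.0% and 92.6% in CB. The order of RPS6KA1 and RPS6KA3 turned over, with RPS6KA1 at 41.9%, 43.7% and 42.1% of their sum in Vector and at 56.1%, 55.6% and 54.0% in CB. Smaller shifts were seen for MKNK2 to MKNK1 (0.64), MAP2K7 to MAP2K4 (0.70) and MAP2K2 to MAP2K1 (0.41). The ratio of the JNK genes MAPK9 to MAPK8 and that of MAPK13 to MAPK14 overlapped between the groups, with exact permutation p of 0.4 and 0.3.

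**Figure D3:**
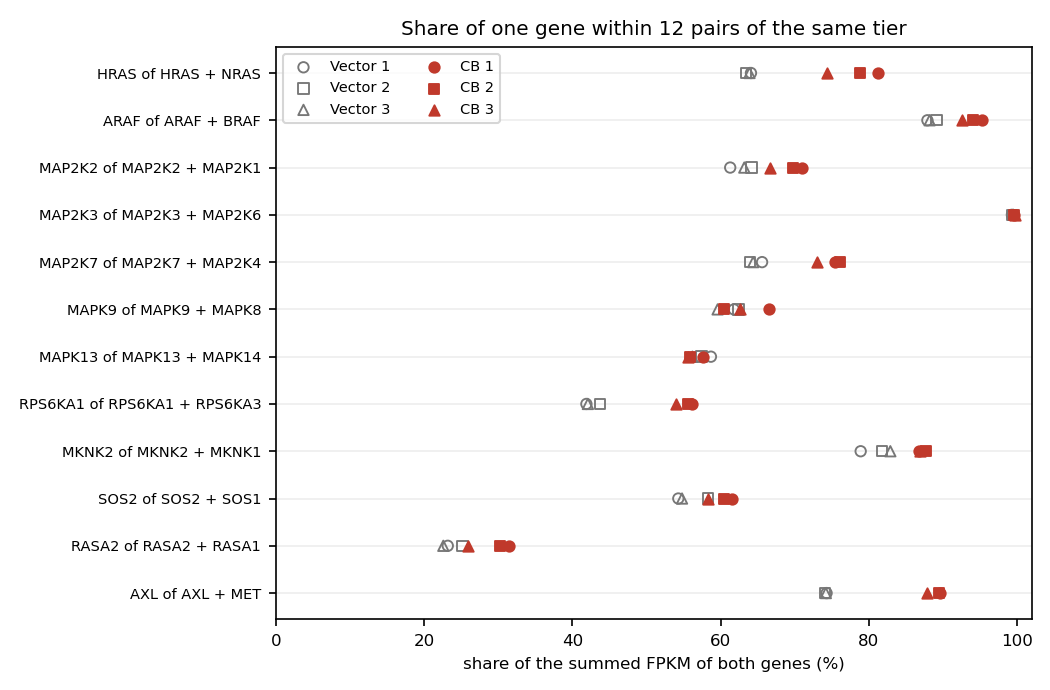
The share of the summed FPKM of 2 genes that the gene named at the left took (x axis, percent) is plotted for 12 pairs in each library, with open grey symbols for Vector and filled red symbols for CB. The AXL share went from between 74.1% and 74.3% in Vector to between 87.8% and 89.6% in CB, and the MAPK13 share overlapped.

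The members that rose and those that fell differed in base composition. The choice of genes did not use this feature, but it was made with earlier results of these data known. GC was taken from the longest GENCODE transcript of each gene. All 12 members that were higher in CB had over 50% GC (50.4% to 65.8%, median 58.6%). Of the 16 that were lower, with a median of 40.2%, 15 had 50% or less. Those 15 had 36.7% to 46.1%, and the exception, PDGFRB, had 57.6%. Of the 11 members not called, 7 had over 50%. The members that rose also had shorter exon lengths, with a median of 4930 bases beside 7088 for those that fell. Over the 39 tested members the log2 change and GC had a correlation of 0.741, and over 11703 tested protein-coding genes 0.430. Genes are no independent replicates and all share the same 6 libraries, so these are descriptions. Split into quintiles by GC, the median change of all tested protein-coding genes went from -0.35 in the lowest quintile through -0.20, 0.01 and 0.19 to 0.33 in the highest, and that of the members from -0.46 through -0.32, -0.06 and 0.03 to 0.44. The lowest quintile held 9 members, all lower, and the highest 10, of which 7 were higher and none lower.

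The same gradient over all protein-coding genes was present in each CB library, from -0.40 in the lowest to 0.39 in the highest quintile in CB 1, from -0.39 to 0.33 in CB 2 and from -0.29 to 0.20 in CB 3. In the Vector libraries, each set against the other Vector libraries, no quintile was farther than 0.029 from 0. CB 1 was the library farthest from Vector for 17 of the 28 called members and for 13 of the 16 that fell. In 9 of the 11 pairs with both genes tested, the log2 ratio moved towards the gene with the higher GC, the exceptions being MAPK13 with MAPK14 and RASA2 with RASA1.

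**Figure D4:**
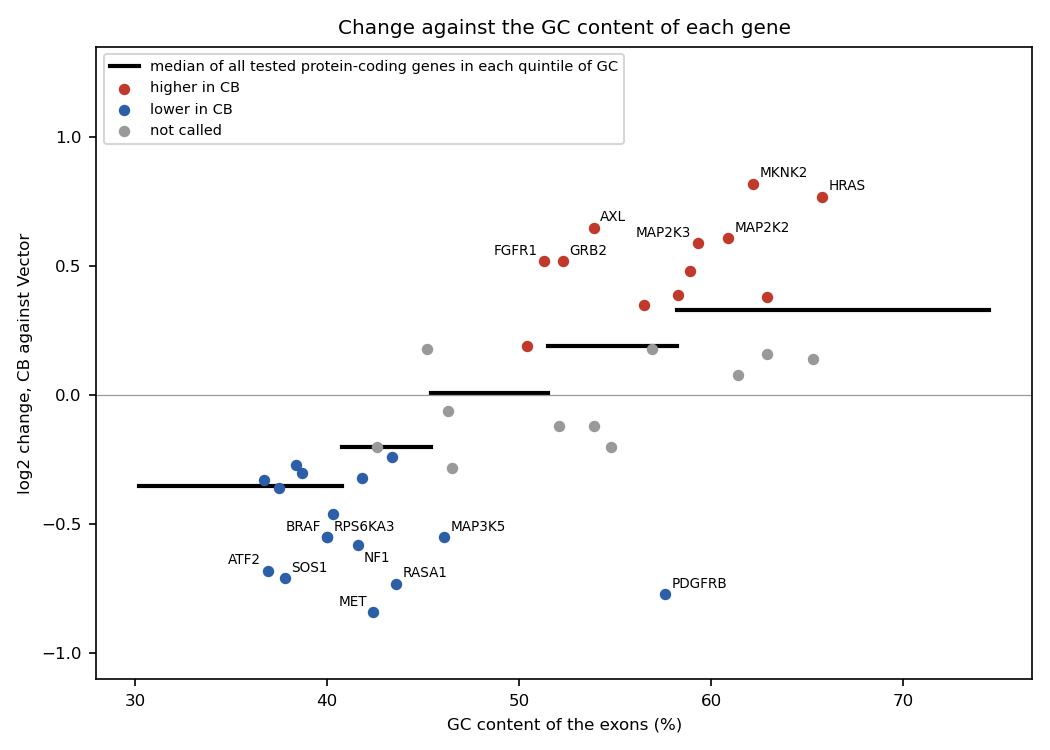
The log2 change of CB against Vector (y axis) is plotted against the GC content of each gene's longest transcript in percent (x axis, labelled exons). The 39 tested members are in red where higher, blue where lower and grey where not called. Black lines give the median of all tested protein-coding genes in each quintile of GC. Members follow the slope of the lines from -0.35 to 0.33. MET, RASA1, MAP3K5 and PDGFRB lie far below the lines, and FGFR1, AXL and MKNK2 are among the members far above them.

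A fit that took GC and exon length into account for each library, added after the gradient had been seen, called 20 members, 9 higher and 11 lower (46.3% of all tested genes were called in this fit, 24.0% higher and 22.3% lower). It takes out any difference that runs along GC or length, whatever its origin. Of the 28 calls, 16 were made in this fit too with the same sign, and over all tested genes 5298 of 7607 were. AXL (0.52), FGFR1 (0.55), GRB2 (0.41), HRAS (0.35), ARAF (0.23), MAP2K2 (0.36), MAP2K3 (0.33) and MKNK2 (0.56) remained higher, and MET (-0.59), PDGFRB (-0.92), SOS1 (-0.31), NF1 (-0.24), RASA1 (-0.56), MAP3K5 (-0.48), RPS6KA3 (-0.21) and ATF2 (-0.32) remained lower. The calls of SOS2, SHC1, BRAF, MAP2K1, MAP2K4, MAP2K7 and MAPK7 were lost with the same sign, and the changes of NRAS, RASA2, MAP3K7, MAPK8 and MAPK9 went to between 0.01 and 0.06 and were no longer called. MYC (-0.32, adjusted p = 0.000285), MAPK13 (-0.17, 0.0121), MAPK3 (-0.22, 0.00621) and MKNK1 (0.35, 0.00812) were not called in the fit without offsets and were called in this one, MAPK3 with its sign turned. The part of sample handling or sequencing in the gradient was not tested.

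The coding sequences of the members that rose and fell followed the same split. The median share of G or C at the third position of codons was 73.6% (63.6% to 85.6%) in those that rose. It was 41.1% (30.8% to 75.0%) in those that fell and 75.8% (43.5% to 84.9%) in the 11 not called. The base composition of the promoters did not follow the split. RefSeq promoters, 250 bases before to 50 after a start on GRCh38.p14, were found for 36 of the 41 members (54 promoters), and their median GC was 66.0% for the members that rose and 65.7% for those that fell, beside 58.7% for all 35116 promoters. A GC box (GGGCGG on either strand, the core of SP1 sites) was found in 68.5% of the members' promoters and 45.0% of all, in 11 of 17 promoters of members that rose and 14 of 19 of those that fell. The core of ETS sites (CCGGAAG) was found in 11.1% of the members' promoters and 10.3% of all, the AP-1 site TGACTCA in 7.41% and 4.95%, the cAMP response element TGACGTCA in 1.85% of either, and the E-box CACGTG in 7.41% and 7.26%. A match of letters is not evidence of a bound site. The promoters of MKNK2, which rose (chr19:2051195-2051494, minus strand), and of MET, which fell (chr7:116671946-116672245, plus strand), are shown 5′ to 3′ because they were alike in this respect, with GC boxes on either strand in capitals.
MKNK2: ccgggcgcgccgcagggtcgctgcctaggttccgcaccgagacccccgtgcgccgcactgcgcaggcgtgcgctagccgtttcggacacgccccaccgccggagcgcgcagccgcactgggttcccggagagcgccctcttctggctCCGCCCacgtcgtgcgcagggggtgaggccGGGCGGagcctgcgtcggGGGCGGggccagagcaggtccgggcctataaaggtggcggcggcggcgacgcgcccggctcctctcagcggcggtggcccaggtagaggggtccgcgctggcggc
MET: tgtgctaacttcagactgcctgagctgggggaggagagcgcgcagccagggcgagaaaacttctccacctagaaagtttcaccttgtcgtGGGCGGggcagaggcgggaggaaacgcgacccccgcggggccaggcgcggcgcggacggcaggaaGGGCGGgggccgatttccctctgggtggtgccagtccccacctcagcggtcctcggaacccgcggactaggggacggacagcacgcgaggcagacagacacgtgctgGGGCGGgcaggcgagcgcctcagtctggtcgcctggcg
Both promoters hold 3 GC boxes, with 77.3% GC for MKNK2 and 69.3% for MET. The longest transcript of MKNK2 has 62.2% GC and that of MET 42.4%.

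The rest of the pathway was read from a list of 89 further ligands, receptors, adaptors, RAS relatives, scaffolds, kinases and transcription factors. This list too was chosen with earlier results of these data known. Of these 75 were tested and 53 called (70.7%, beside 49.8% of all tested genes). Of the 53, 20 were higher and 33 lower (24.4% and 25.4% of all tested genes were). The median change was -0.14, beside -0.002. With GC and length offsets 17 were higher and 28 lower (24.0% and 22.3% of all tested genes were). In these tiers 2 of 4 tested RAS GTPase-activating proteins were lower and none higher, and 4 of 5 tested effector kinases were higher and none lower. Of 13 MAP3K genes 5 were higher and 3 lower. Of 7 tested adaptors and exchange factors 1 was higher and 5 lower, and of 5 RAS relatives 1 was higher and 4 lower. With the offsets RRAS (0.05), RRAS2 (0.03), RAP1A (0.12) and RAP1B (0.19) were not called, and MRAS (-0.36) remained lower. In the other tiers just named, GAB1, FRS2, MAP3K14 and MAPKAPK2 were not called with the offsets either. RASA3, DAB2IP, MAP3K2 and TAOK2 were called with the offsets alone. Whether the tiers differ was not tested. Changes of at least 2-fold were seen for 7 genes. FGFR3, another fibroblast growth factor receptor, was at 0.859, 0.659 and 0.789 FPKM in Vector and at 1.91, 2.16 and 1.72 FPKM in CB, a rise of 1.34 ± 0.16 (edgeR adjusted p = 2.65e-05). MERTK, a relative of AXL, was at 12.4, 13.3 and 12.6 FPKM in Vector and at 4.24, 4.34 and 4.74 FPKM in CB, and fell by 1.5 ± 0.084 (edgeR adjusted p = 1.7e-07). Thus AXL and MERTK, which share ligands, moved in opposite directions, each without overlap of the groups. PROS1, a ligand of MERTK, was at 17.6, 19.7 and 18.8 FPKM in Vector and at 8.75, 8.28 and 8.22 FPKM in CB, and fell by 1.13 ± 0.075 (edgeR adjusted p = 5.7e-07). PDGFD, a ligand of PDGFRB, fell by 1.5 ± 0.16, the collagen receptor DDR1 by 1.02 ± 0.089, the kinase TNIK by 1.03 ± 0.13 and the transcription factor MEF2C by 1.20 ± 0.14 (edgeR adjusted p = 1.67e-05, 3.7e-06, 3.7e-05 and 2.64e-05). MEF2C, at 0.768 to 0.902 FPKM in Vector and 0.329 to 0.372 FPKM in CB, passed the abundance minimum through the Vector libraries alone. All 7 kept their direction and call with the offsets.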

How the data were processed

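Tools listed by the submitters in their processing notes are featureCounts 1.5.0-p3 and HISAT2 2.0.5. The study's methods list neither and speak of RPKM from uniquely mapped reads. The authors deposited raw whole-number counts. Beside them stand deposited FPKM values, equal to count over exon length and library total, times 1 constant per library (0.981 to 1.06). Coordinates and lengths of 58735 of 58735 genes equal GENCODE release 29 on GRCh38. For counting by strand, nothing was found in the sources used here. The study names Cufflinks, which cannot be run on gene tables.

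Groups came from the sample titles. The 15289 genes whose mean was 0.5 FPKM or more were tested on the counts with the quasi-likelihood test of edgeR 4.0.16 (R 4.3.3, TMM scaling, group as the only term, two-sided, threshold 0.05 after adjustment, common biological variation 8.51%), after the procedure was tested on simulated data. Alternatives used DESeq2 1.42.0, limma 3.58.1 on log2(FPKM + 1) and log2(FPKM + 0.1), limma-voom, other scalings and minimums, a replicate block, each library left out, and offsets from a lowess fit (span 0.3) of log2 change on GC and log2 length per library. The members and gene lists were chosen with earlier results of these data known. All members are accounted for. Given with every library were those called with at least a 1.5-fold change and, per tier, the most abundant and the one with the smallest p, with others chosen after their values were seen (NRAS and KSR1). Of other pathway genes, those called with at least a 2-fold change were named. Protein sequences were not used here, and of the coding sequences the base composition alone is given.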

Additional observations from a re-analysis of the deposited data

How the results depend on the processing

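Of the 28 called members, 15 kept their direction and call under all 17 alternatives and 23 under the 16 that leave GC and length aside, under which no tested member changed sign. Between 25 and 31 members were called with 1 library left out (11 to 13 higher, 14 to 18 lower), 31 with library totals alone (11 higher, 20 lower), 26 with limma on FPKM, and 28 with DESeq2. Over all tested genes, 6151 to 8647 were called with 1 library left out (3002 to 4224 higher, 3149 to 4423 lower), and 45 to 60 of the other pathway genes (15 to 26 higher, 30 to 34 lower). Replicate numbers did not pair the libraries, since the deviations of same-numbered libraries had correlations of -0.088, -0.031 and -0.039, and a replicate block called 27 members (MAP2K1 lost) and 7142 genes. With GC and length offsets 12 calls were lost (5 of them with the sign turned), 4 were gained and 16 kept. In all 10 changes reversed, to 0.024 for NRAS, 0.047 for RASA2, 0.052 for MAP3K1, 0.042 for MAP3K7, 0.058 for MAPK8, 0.011 for MAPK9, 0.044 for MAPK14, -0.22 for MAPK3, -0.21 for MAPK11 and -0.075 for MAPK12; the cause was not tested. The correlation of the members' changes with GC was 0.304 with the offsets, and 0.818 and 0.808 with minimums of 1 FPKM over all and over the Vector libraries. The pair ratios were recomputed with 0.1 added to FPKM and with each library left out, and kept their direction there. PDGFRA and MAP2K6 were too scarce for the test.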
